A study of Mus musculus with 25 samples.

Results

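Gene expression in the tibialis anterior, the fast muscle at the front of the lower leg, was compared between 1 day and 6 hours after a freeze injury. The comparison rests on the 3 arrays titled as freeze at 1 day (samples 422, 460 and 464) against the 3 titled as freeze at 6 hours (samples 418, 432 and 446), 6 of the 25 arrays of the series. All mice were female C57BL/6J animals of 2 to 3 months, and the labels name no genotype or agent. The freeze was made with a steel probe of 6 mm diameter at the temperature of dry ice, kept on the muscle for 10 s. Outside the contrast lie uninjured muscles (3 arrays) and muscles at 6 hours (3 arrays) and 1 day (2 arrays) after 150 eccentric contractions. In these contractions the active muscle is stretched. Both kinds of array serve below as a reference and add to the shared estimate of the spread. Arrays at 3 and 7 days after freeze or contraction also add to this estimate, except 1 freeze array left out of the main fit. The contraction arrays at 6 hours and 1 day also enter a separate test of the difference between injuries. The question was which genes were switched on and off between the 2 times, with no control in the contrast.

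Freezing kills the muscle fibres under the probe, and the tissue next to them survives. In the hours that follow, surviving cells express immediate early genes, which encode transcription factors made without prior protein synthesis, and heat shock proteins, which refold damaged proteins. Neutrophils enter the injured muscle first, monocytes follow and become macrophages that clear the dead fibres, and satellite cells, the stem cells of muscle, begin to divide.

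Each probe set has 1 array signal on a linear scale, and changes are differences of log2(signal + 13), which understate the change of dim genes. A gene was called at an adjusted p under 0.05 in limma, a linear model fitted across all probe sets, with Benjamini-Hochberg adjustment over the 10833 probe sets of 1 gene symbol, and is represented by its brightest probe set. The fit used 24 arrays, since 1 freeze array at 3 days (sample 436), in neither group compared, correlated at 0.947 to 0.952 with the controls and at 0.80 to 0.802 with its own group. With that array kept, the shared estimate of the spread rose and far fewer genes were called. Counts from both fits are therefore given. Over log2 values the arrays of 1 day correlated with each other at 0.954 to 0.966, those of 6 hours at 0.948 to 0.961, and the 2 times with each other at 0.903 to 0.938. The ratio of the 3′ to the 5′ probe set of actin, a measure of RNA quality, was 0.797, 0.657 and 0.955 at 6 hours and 1.31, 1.06 and 1.01 at 1 day. These groups did not overlap, and the controls lay between 0.560 and 0.595. The same ratio of Gapdh did overlap, at 0.810 to 0.944 and 0.825 to 1.04. The part of the actin ratio in the results was not tested. The labels do not say that samples came from separate mice, so the p-values reflect only how these samples spread, which may be technical.

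Between 6 hours and 1 day 729 of the 10833 probe sets rose (6.73%) and 458 fell (4.23%). Of 8251 genes 638 rose and 392 fell. These are 7.73% and 4.75% of the genes, and together 1030 genes, or 12.5%. Of these, 334 rose and 156 fell at least 2-fold. The 3 arrays of one time lay beyond the 3 of the other in 2627 genes (31.8%), called or not. With all 25 arrays in the fit 167 genes rose and 94 fell, and with the 6 arrays alone 502 and 295. The 15 largest rises included the macrophage markers Lgals3, Mrc1, Ccr2 and C1qa, and the 15 largest falls the immediate early genes Fos, Btg2 and Egr1 and the heat shock genes Hspa1a and Hspa1b. These rises and falls were taken among calls of at least 2-fold in which the times did not overlap. Their lack of overlap, here and below, was thus a condition and not a result. The median change over all genes was -0.04.

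**Figure D1:**
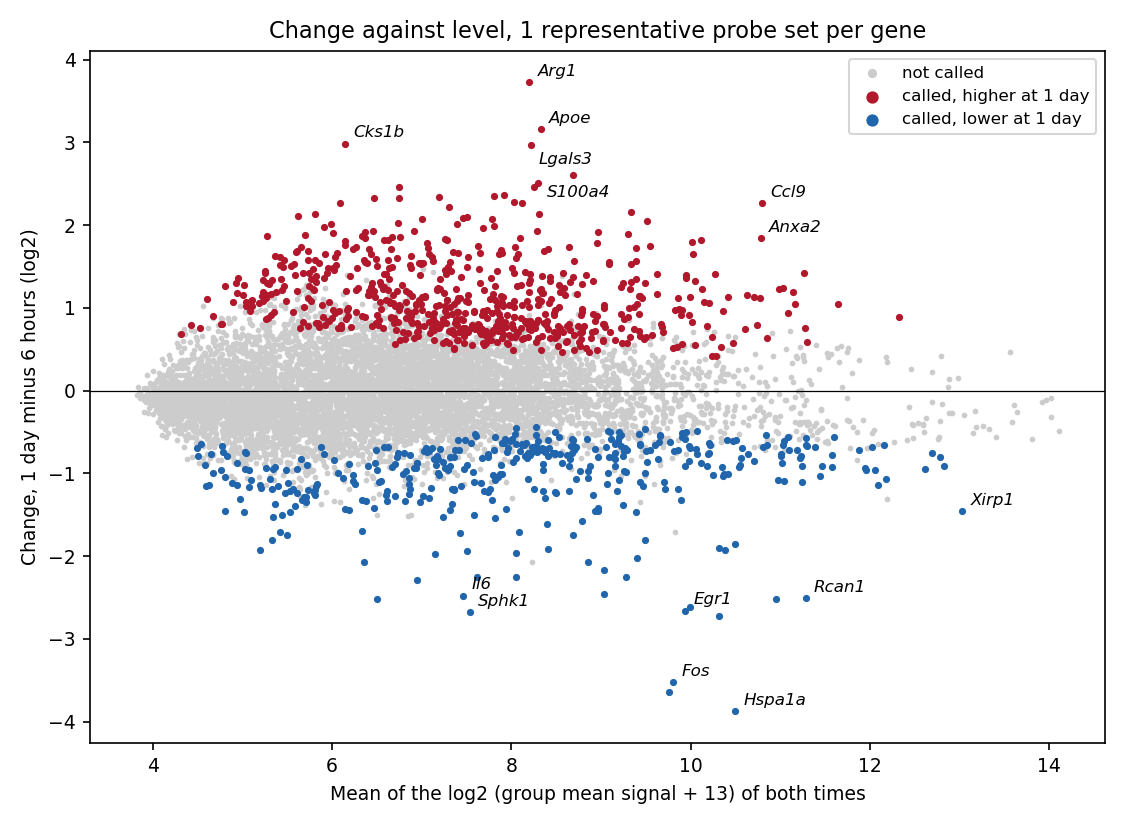
Change in log2(signal + 13) from 6 hours to 1 day after freeze (y axis) against the mean log2 level of both times (x axis), 1 point per gene. Red points are the 638 genes called higher at 1 day, blue the 392 called lower, grey those not called, and calls lie across the whole range of levels.

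Most rises went beyond the level of uninjured muscle. Of the 638 genes that rose, 340 overlapped the 3 controls at 6 hours and lay above all of them at 1 day. Another 116 were above the controls at both times, 33 went from below to above, and 79 returned from below into the control range. A further 68 overlapped the controls at both times, and 2 were below at both. Of the 392 that fell, 68 returned from above into the control range and 43 stayed above it. A larger number, 154, went from the control range to below it, and 65 were below at both times. Another 13 went from above to below, and 49 overlapped the controls at both times. These positions were not counted over all genes, so the counts describe called genes only. A gene called for a higher signal at 1 day is also more likely to lie above the controls then.

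Few genes passed from a dim to a bright signal. Called genes under the 40th percentile of each array at one time (34.8 to 42.5 units) and above the 60th percentile of each array at the other (87.4 to 97.2 units) numbered 8 switched on (0.097% of the genes) and 2 switched off (0.0242%). Cks1b, which encodes a subunit of the cyclin-dependent kinases of the cell cycle, had signals of 12, 10.9 and 13 at 6 hours and 135, 204 and 226 at 1 day. Ltb4r1, the leukotriene B4 receptor of leukocytes, had 28.4, 38.7 and 38.3 at 6 hours and 204, 216 and 264 at 1 day. For both genes the controls (7.6 to 20.7 for Cks1b, 28.8 to 35.6 for Ltb4r1) were as dim as the 6 hour arrays. The other 6 genes switched on were Pea15a, Cotl1 (an actin-binding protein), Ccl12 and Ccl8 (chemokines that attract monocytes), Cad (the enzyme that starts pyrimidine synthesis) and Stmn1 (a regulator of microtubules). Their changes ran from 1.65 for Stmn1 to 2.33 for Pea15a. One control array of Pea15a was as high as 125. The 2 genes switched off were Smad3, a signal transducer of TGF-beta, and Frat2, a regulator of Wnt signalling. Smad3 fell from 97.0, 93.8 and 118 to 24.1, 40.8 and 26.0. Its controls of 36.2 to 75.3 lay below every 6 hour array and overlapped the 1 day arrays. Frat2 fell from 128, 262 and 202 to 5.9, 42.3 and 29.7, below its control signals of 147 to 167. Of the 8, Cks1b, Ltb4r1, Ccl12 and Cad kept their calls with all 25 arrays, and Pea15a, Cotl1, Ccl8 and Stmn1 lost it. Both genes switched off kept theirs.

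Among immediate early genes the called changes were all falls. Of 25 measured members of a list of 30, 13 fell (52.0%) and 0 rose, with a median change of -1.03. In the fit of all 25 arrays 9 fell. Fos, a subunit of the AP-1 transcription factor, had signals of 2035, 5260 and 2178 at 6 hours and 268, 260 and 189 at 1 day. Its change was -3.52 ± 0.36 (SE, adjusted p = 1.53e-06), an 11.5-fold fall. The 1 day arrays still lay above the controls of 23.0 to 49.6. Btg2, which restrains cell division, had 3132, 3031 and 3561 at 6 hours and 595, 371 and 498 at 1 day, and fell by 2.72 ± 0.20 on the log2 scale (adjusted p = 2.02e-08). Egr1 went from 2649, 1929 and 2680 to 408, 253 and 482. Atf3, a stress-induced repressor, went from 2984, 8651 and 3364 to 935, 604 and 784, and Cebpd from 2777, 2239 and 2509 to 344, 401 and 449. In each of these genes every 1 day array was below every 6 hour array, which was a condition for naming them. Atf3 at 1 day was above its controls of 83.9 to 138. Fosb (-1.50), Junb (-1.57), Nr4a1 (-1.42), Zfp36 (-1.30), Ier2 (-1.21) and Dusp1 (-1.03) fell less. Myc (-1.19) lost its call without array 422 or array 446, and Cebpb (-0.90) without any of arrays 422, 460, 418 and 446. Jun (-0.35), Jund (0.14), Ier3 (0.06), Fosl1 (-0.05) and Klf2 (-0.11) were not called. Klf2 was dim, with means of 20.0 at 6 hours and 17.9 at 1 day.

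Other regulators fell as well. Rcan1, an inhibitor of the phosphatase calcineurin, had 5902, 5444 and 6276 at 6 hours and 908, 879 and 1337 at 1 day, a change of -2.50 ± 0.19 (adjusted p = 4.4e-08). Sphk1, a sphingosine kinase, went from 535, 300 and 487 to 55.7, 27.5 and 106. Irs2, an adaptor of the insulin receptor, went from 246, 190 and 296 to 54.4, 11.1 and 72.3, with controls of 16.2 to 105. The 3 GADD45 genes, which act in growth arrest, fell by 2.25 for Gadd45g, 1.61 for Gadd45b and 1.33 for Gadd45a on the log2 scale. The call of Gadd45a was lost without any one of arrays 422, 460, 464, 418 and 446, and with all 25 arrays (adjusted p = 0.115). They were the only called members among 10 of the p53 and growth arrest list, and Cdkn1a (-0.09) and Mdm2 (0.26) were not called. All 3 arrays of 1 day were below those of 6 hours for each of these regulators that fell. For Rcan1, Sphk1, Irs2 and Gadd45g this was a condition for naming them.

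Of 18 measured heat shock genes 5 fell (27.8%) and 0 rose, with a median of -0.61. The fit of all 25 arrays gave 4 that fell. Hspa1a, an inducible Hsp70, had 6026, 11839 and 1418 at 6 hours and 376, 234 and 325 at 1 day, against 45.2 to 112 in controls. Hspa1b, its near-identical copy, had 3366, 8044 and 462 at 6 hours and 164, 160 and 204 at 1 day. Both were high on every 6 hour array, most on array 432 and least on array 446, and the probe sets of the pair may share signal. The changes were -3.88 ± 0.54 (adjusted p = 5.96e-05) for Hspa1a and -3.64 ± 0.66 (adjusted p = 0.00102) for Hspa1b. Dnajb4, an Hsp40 that assists Hsp70, fell by 2.17, and Bag3, which directs damaged filament proteins to autophagy, by 1.90. Hspa8, the constitutive Hsp70, fell by 0.67 and lost its call without any one of arrays 422, 460, 464, 418 and 432. Dnajb1, another Hsp40, was not called: it had 127, 2986 and 85.2 at 6 hours, high on array 432 alone, and 51.4, 87.3 and 73.5 at 1 day. Without array 446, 10 members fell. Hspb1 (-0.65), Hsp90aa1 (-0.55), Cryab (-0.12) and Hspd1 (-0.03) were not called. Hspb1 was dim, with means of 27.8 at 6 hours and 14.1 at 1 day.

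Chaperones of the endoplasmic reticulum (ER), where secreted proteins are folded, rose in part. Of 17 measured genes 10 rose (58.8%) and 0 fell, with a median of 1.23. The fit of all 25 arrays gave 8 that rose. Hspa5, the Hsp70 of the ER and a sensor of unfolded proteins, had 1180, 964 and 1846 at 6 hours and 3085, 3252 and 2753 at 1 day, against 570 to 729 in controls. Its change was 1.23 ± 0.19 (adjusted p = 0.000222). Hsp90b1, the Hsp90 of the ER, went from 669, 452 and 674 to 1454, 1627 and 1642. For both the 1 day arrays were above every 6 hour array and every control. Dnajc3 (1.82), Pdia3 (1.71), Creld2 (1.66), Manf (1.56), Pdia6 (1.43), Pdia4 (1.36), Dnajb9 (1.29) and Dnajb11 (1.18) also rose. Calr (-0.38) and Canx (-0.57), which fold glycoproteins, and Xbp1 (0.26) and Ddit3 (0.20), factors of the unfolded protein response, were not called. The Calr probe set was dim, with means of 16.3 at 6 hours and 9.23 at 1 day, so its lack of a call says little. Pdia3 lost its call with all 25 arrays (adjusted p = 0.064).

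The promoters of these genes are shown because several hold the same long motif. Promoters of RefSeq genes (GRCm38.p6, 250 bases before to 50 after the start) were searched on both strands for the ER stress element, CCAAT and CCACG with 9 bases between them. It was found in 7 of the 15 ER chaperone genes with a promoter. Of these 5 rose, and Calr, which was dim, and Canx were not called. It was in 0.119% of 32851 promoters and in 0.182% of the genes on the array with a promoter. Shares of genes, here and below, count a gene once if any of its promoters matched. Of genes with a promoter, it was in 6 of 511 that rose (1.17%) and 0 of 303 that fell. Of these 6, 5 are the ER chaperones counted above, so this share is not separate from that count. For an element this rare, 0 of 303 says little. A match is a description of the letters and not a measured binding site. The 250 bases before the start of Hspa5 lie at chr2:34771840-34772089 on the plus strand, and the element, in capitals, begins 65 bases before the start. The other lines give the element in capitals with 8 bases on either side, from the promoters of Hsp90b1 (chr10:86705395-86705694, minus strand, 1 of 2 matches), Pdia6 (chr12:17266339-17266638, plus), Dnajc3 (chr14:118937682-118937981, plus) and Creld2 (chr15:88819396-88819695, plus), where it reads on the opposite strand.
Hspa5: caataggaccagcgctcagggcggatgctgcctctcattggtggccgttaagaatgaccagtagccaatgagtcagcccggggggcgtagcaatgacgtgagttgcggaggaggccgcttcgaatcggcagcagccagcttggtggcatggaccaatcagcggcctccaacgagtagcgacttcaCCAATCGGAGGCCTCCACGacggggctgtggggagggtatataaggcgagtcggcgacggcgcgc
Hsp90b1: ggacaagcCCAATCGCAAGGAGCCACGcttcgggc
Pdia6: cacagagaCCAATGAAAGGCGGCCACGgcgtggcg
Dnajc3: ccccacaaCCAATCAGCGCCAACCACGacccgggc
Creld2: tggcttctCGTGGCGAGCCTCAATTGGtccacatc

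The heat shock element was searched as GAA, TTC and GAA with 2 bases between each pair. It was in 4 of 15 heat shock genes with a promoter (Hsph1, Hspd1, Hspe1 and Chordc1, none called). It was in 0.603% of all promoters and in 0.563% of the genes on the array with a promoter. Of genes with a promoter, it was in 3 of 511 that rose (0.587%) and 0 of 303 that fell. At so low a share, 0 of 303 says little. The cyclic AMP response element TGACGTCA was in 3 of 20 immediate early genes with a promoter (Btg2 and Dusp1, which fell, and Maff, not called). It was in 0 of 11 clock genes with a promoter and in 1.79% of all promoters. Among genes with a promoter it was in 3.16% of those on the array, 5.28% of those that fell and 2.94% of those that rose.

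**Figure D2:**
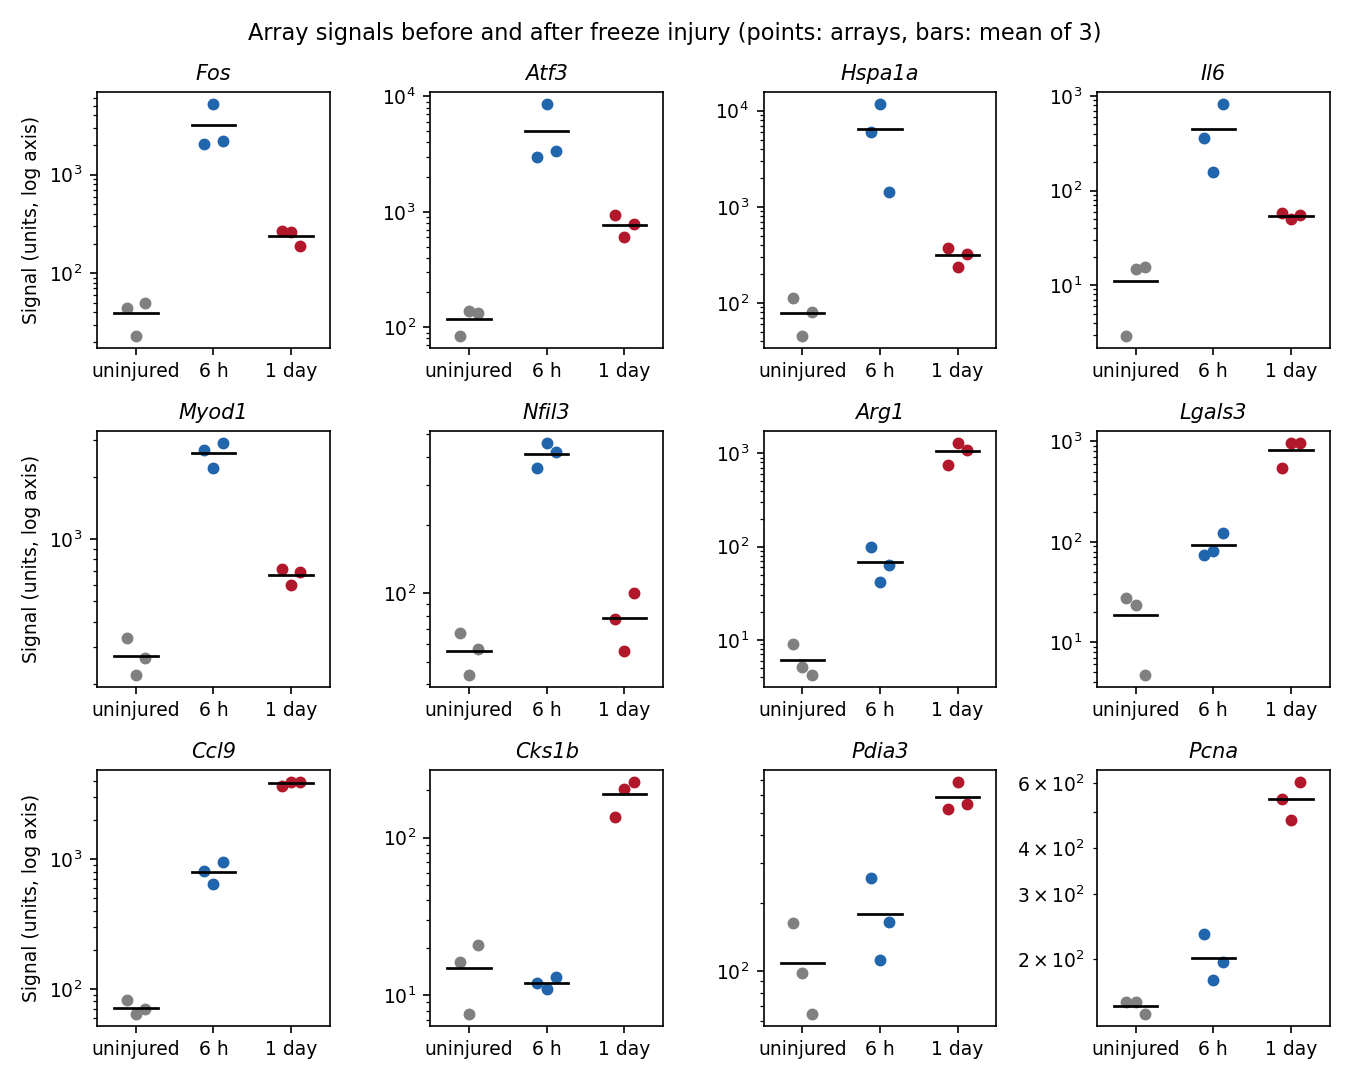
Signal of 12 genes on each array (log axis), in uninjured muscle and at 6 hours and 1 day after freeze. Points are arrays and bars the mean of 3: Fos, Atf3, Hspa1a, Il6, Myod1 and Nfil3 were lower at 1 day than at 6 hours on all arrays, and Arg1, Lgals3, Ccl9, Cks1b, Pdia3 and Pcna were higher on all. For Fos, Atf3, Hspa1a, Il6, Arg1, Lgals3, Ccl9 and Cks1b this was a condition for naming them.

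Chemokines and cytokines moved in both directions. Chemokines call leukocytes from the blood, and the CC and CXC families differ in the cells they attract. Of 12 CC chemokines 4 rose (33.3%) and 2 fell (16.7%), with 1 and 1 when all 25 arrays were fitted. Ccl9 had 819, 641 and 952 at 6 hours and 3699, 3935 and 3974 at 1 day, against 63.9 to 81.5 in controls. Its change was 2.27 ± 0.24 (adjusted p = 2.42e-06, and 0.116 with all 25 arrays). Ccl12 went from 17.0, 20.8 and 14.2 to 116, 102 and 101, and Ccl7 from 393, 210 and 536 to 954, 1038 and 1171. Every 1 day array exceeded every 6 hour array for these genes. Ccl11, the attractant of eosinophils, went the other way, from 184, 68.9 and 238 to 27.8, 19.3 and 28.2, below its controls of 36.6 to 47.9. Ccl4 (-1.70) also fell, but not without array 460. Ccl2, the main attractant of monocytes, was high at both times, with 1395, 878 and 2394 at 6 hours and 2377, 2461 and 2173 at 1 day, and was not called (0.70 ± 0.41, adjusted p = 0.302).

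Of 22 other cytokines and CXC chemokines 5 fell (22.7%) and 2 rose (9.09%), with 4 and 2 in the fit of all 25 arrays. Il6, which signals through gp130 in muscle and leukocytes, had 358, 155 and 828 at 6 hours and 57.6, 50.5 and 55.0 at 1 day, a change of -2.48 ± 0.51 (adjusted p = 0.00281). Cxcl1, an attractant of neutrophils, went from 1178, 692 and 1912 to 186, 176 and 244. The groups did not overlap, which was a condition for naming these genes, and both genes at 1 day were still above every control. The interferon-induced Cxcl10 fell from 49.2, 77.6 and 56.8 to 2.8, 5.4 and 18.7, against 3.6 to 18.2 in controls. Cxcl9 (-1.71) fell too, and Csf3, the growth factor of neutrophils, by 1.00, but not without array 464. Cxcl12 rose from 188, 209 and 215 to 481, 658 and 465, and Tnf from 14.6, 17.0 and 12 to 54.0, 62.9 and 80.3, with 1 control of Tnf at 52.7. Il1b was not called at -1.08 ± 0.62 (adjusted p = 0.282), although its 3 arrays of 1 day (200, 196 and 268) were below those of 6 hours (362, 410 and 738). Of 18 feedback genes and targets of NF-kappaB, 5.56% rose and 5.56% fell, near the 7.73% and 4.75% of all genes. Only Vcam1 rose (0.82) and only Socs3 fell (-0.97). Both were lost with all 25 arrays, and each without at least 4 of the 6 arrays compared: arrays 460, 464, 418 and 446 for both, and array 422 as well for Socs3.

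Most macrophage markers rose. Of 27 measured markers 20 rose (74.1%) and 1 fell, with a median of 1.55. Their summed signal was 4071 to 6722 at 6 hours and 10226 to 13841 at 1 day, against 1371 to 1848 in controls. In the fit of the 6 arrays alone the counts were the same, but with all 25 arrays only Mrc1 and Chil3 rose and 0 fell. In RNA of whole muscle, more cells of a type and more RNA per cell cannot be told apart, nor can fewer cells and less RNA per cell. Lgals3, a lectin of phagocytes, had 74.5, 81.1 and 122 at 6 hours and 543, 973 and 955 at 1 day, and rose by 2.97 ± 0.29 (adjusted p = 9.09e-07, and 0.126 with all 25 arrays). Mrc1, the mannose receptor, had 27.8, 29.9 and 40.8 at 6 hours, in its control range of 25.3 to 46.0, and 249, 265 and 205 at 1 day. Ccr2, the receptor of Ccl2 on monocytes, went from 72.5, 77.8 and 217 to 531, 926 and 572. All 1 day arrays were above all 6 hour arrays, which was a condition for naming these genes. Csf1r, the receptor for the macrophage growth factor, rose from 69.1, 102 and 114 to 441, 471 and 394, and Aif1 from 7.1, 7.7 and 7.0 to 46.5, 69.3 and 68.8. C1qa, a complement subunit made by macrophages, was below its controls (86.1 to 99.4) at 6 hours with 37.8, 57.5 and 60.5 and above them at 1 day with 238, 399 and 317. Cd68 (1.73), Adgre1 (1.53), Msr1 (1.53), Itgam (1.59) and Chil3 (2.13) rose, as did Lyz2 (1.79), whose call was lost without array 418. Tyrobp (1.55) lost its call without any one of arrays 460, 464, 418 and 432. Cd14, the coreceptor for endotoxin, fell by 1.10, from 1109, 899 and 1670 to 618, 482 and 545, and lost its call without any one of arrays 460, 464, 418 and 446. Cybb (-0.04) and Cx3cr1 (-0.80) were not called.

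The largest rise was that of Arg1, which encodes arginase, an enzyme that turns arginine into ornithine and urea. It had 99.9, 42.2 and 63.7 at 6 hours and 747, 1305 and 1092 at 1 day, against 4.2 to 9.1 in controls. The change was 3.73 ± 0.32 (adjusted p = 1.87e-07), or 13.2-fold. Odc1, which converts ornithine to a polyamine, rose from 382, 279 and 326 to 580, 475 and 563, and the other 5 of 7 polyamine genes were not called. Apoe, a lipid carrier, had 51.6, 89.7 and 152 at 6 hours and 739, 1089 and 925 at 1 day. Its 3 controls ranged from 19.7 to 208. S100a4, a calcium-binding protein of motile cells, had 108, 112 and 138 and then 732, 738 and 744, and Tgfbi, a secreted matrix protein, 112, 143 and 210 and then 820, 1133 and 1019. Stab1, a scavenger receptor, went from 86.1, 89.1 and 81.2 to 376, 599 and 523, and Capg, an actin-capping protein, from 126, 83.5 and 108 to 481, 552 and 649. Psat1, an enzyme of serine synthesis, rose from 87.2, 64.6 and 134 to 488, 466 and 634. The times did not overlap for any of these genes, which for all but Odc1 was a condition for naming them. In the fit of all 25 arrays Apoe (adjusted p = 0.209), Psat1 (0.126), Capg (0.0598) and Odc1 (0.0589) lost their calls, and Arg1, S100a4, Tgfbi and Stab1 kept them.

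Most of the lysosomal genes, which encode the enzymes that digest engulfed material, rose. Of 18 measured 12 rose (66.7%) and 0 fell, with a median of 1.09, and the summed signal went from 10072 to 10810 at 6 hours to 16544 to 18334 at 1 day. Only Ctsc rose in the fit of all 25. Lgmn, the protease legumain, had 138, 74.8 and 131 and then 456, 631 and 688. The protease Ctsc had 54.4, 46.1 and 81.3 and then 320, 402 and 264. Ctss went from 220, 252 and 419 to 1193, 1609 and 1187, and changed by 2.15 ± 0.33 (adjusted p = 0.000197, and 0.282 with all 25 arrays). These cathepsins did not overlap between the times. Ctsz (1.96), Ctsh (1.92) and Lipa (1.88), the acid lipase, rose too. Npc2 (0.76) lost its call without array 460. The membrane proteins Lamp1 (0.13) and Lamp2 (0.00) were not called. The TFEB box TCACGTGA was in 2 of 16 lysosomal genes with a promoter (Ctsa and Ctsd) and in 0.974% of all promoters. Among genes with a promoter it was in 1.92% of those on the array, 3.91% of those that rose and 1.65% of those that fell.

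Neutrophil markers were mostly not called. Of 14 measured only Mmp9, a gelatinase, was called (7.14%, near the 7.73% of all genes that rose). Its rise (1.46) was lost without array 460 or array 464. S100a8 had 1447, 1475 and 2644 at 6 hours and 1124, 1540 and 2004 at 1 day, against 22.5 to 36.2 in controls, with a change of -0.23 ± 0.61 (adjusted p = 0.848). S100a9 was not called either (-0.81 ± 0.61). Both genes were far above the controls at both times, and their groups overlapped. The summed signal of the list was 3320 to 5074 at 6 hours and 2558 to 4116 at 1 day. Of 15 lymphocyte markers 2 fell (13.3%, against 4.75% of all genes) and 0 rose. The B cell genes Cd79b (0.21) and Ms4a1 (-0.2) were among those not called. Cd79a of B cells went from 111, 157 and 149 to 47.4, 76.3 and 26.5, and Ighm from 232, 251 and 178 to 129, 163 and 120, but Ighm lost its call without any one of arrays 464, 418 and 432, and only 2 of its 16 probe sets fell. Of 8 MHC class II genes only H2-DMa rose (12.5%, against 7.73% of all genes). Its change was 1.21, and it was not called with all 25 arrays (adjusted p = 0.311). Of 20 interferon genes 10.0% rose and 5.0% fell, near the 7.73% and 4.75% of all genes. Psmb9 (1.67) and Psmb8 (0.94) rose and Gbp2 (-1.34) fell. None of these 3 was called with all 25 arrays, and Psmb9 lost its call without array 460 or 432, Gbp2 without 422 or 446, and Psmb8 without any one of 422, 460, 464, 418 and 432.

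**Figure D3:**
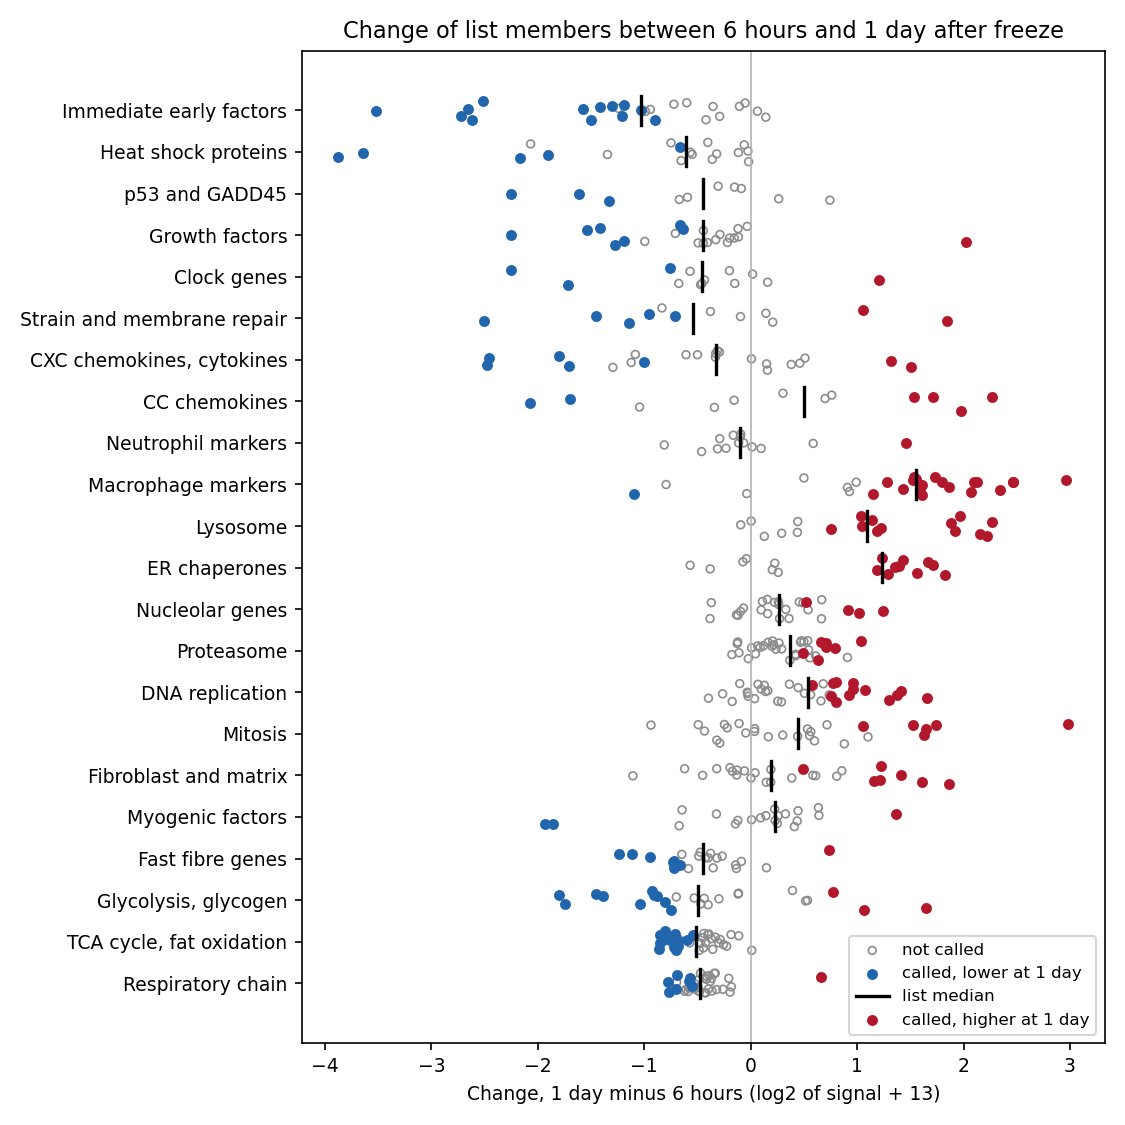
Change in log2(signal + 13) from 6 hours to 1 day after freeze for the members of 22 gene lists. Each circle is a gene, filled blue where called lower, filled red where called higher and open where not called, and the black bars are list medians, from -1.03 for immediate early genes to 1.55 for macrophage markers.

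Some genes of cell division rose. Of 36 measured DNA replication genes 13 rose (36.1%) and 0 fell, with a median of 0.53. With all 25 arrays 4 rose, and 7 rose without array 460, array 464 or array 432. Pcna, the sliding clamp of the DNA polymerases, had 233, 176 and 196 at 6 hours and 544, 476 and 604 at 1 day, against 142 to 153 in controls, a change of 1.37 ± 0.21 (adjusted p = 0.000139). Mcm5, a subunit of the replicative helicase, went from 89.0, 79.6 and 75.7, below its controls of 103 to 106, to 190, 263 and 268. Lig1, the ligase that joins new DNA, had 40.7, 21.8 and 13.2 and then 87.5, 123 and 99.2, with controls of 31.9 to 108. Each gene was separated between the times, but only Pcna and Mcm5 passed all controls at 1 day. Mcm4 (1.3), Rrm2 (0.96), Mcm3 (0.96) and Cdt1 (0.92) rose as well. Mcm3 was not called without array 418, Rrm2 without 460, 464 or 432, and Cdt1 without 422, 460 or 446. Tk1 (0.04), Ccne1 (-0.03) and Mcm6 (-0.10) were not called. Mcm6 was dim, with means of 14.2 at 6 hours and 11.7 at 1 day.

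Promoters of the replication genes are shown for the site of E2F, the factor that drives genes of S phase, searched as TTTNGCGC on both strands of the same 300-base windows. It was in 9 of 31 replication genes with a promoter (Mcm3, Mcm5, Mcm6, Mcm7, Rfc3, Pola1, Cdt1, Lig1 and Orc1), of which 4 rose. It was in 1.38% of all promoters. Among the genes on the array with a promoter it was in 2.75%. Of genes with a promoter, it was in 32 of 511 that rose (6.26%) and 2 of 303 that fell (0.66%). The lines give the site in capitals with up to 8 bases on either side, for Lig1 (chr7:13278576-13278875, plus strand), Mcm5 (chr8:75109259-75109558, plus, 2 overlapping sites), Mcm3 (chr1:20820263-20820562, minus) and Cdt1 (chr8:122567765-122568064, plus).
Lig1: caaagtgcGCGCGAAAtctgtgtg
Mcm5: ccaagaacTTTCGCGCCAAAacgt
Mcm3: tgggaagtTTTGGCGCcaag
Cdt1: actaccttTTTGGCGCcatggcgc

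Of 27 mitosis genes 6 rose (22.2%) and 0 fell, and with all 25 arrays 1, Cks1b, rose. Cdk1, the kinase that starts mitosis, had 13.1, 17.5 and 65.5 at 6 hours and 116, 130 and 114 at 1 day, with controls of 13.4 to 22.8. Its change was 1.74 ± 0.34 (adjusted p = 0.00191, and 0.0814 with all 25 arrays). Stmn1 (1.65), Prc1 (1.63) and Cks2 (1.52) rose, and Kif11 (1.06) lost its call without any one of arrays 422, 460, 432 and 446. Mki67 (-0.25), Plk1 (0.04) and Ccnb2 (-0.05) were not called. On all 3 arrays 11 of the 27 genes were under the 40th percentile at 6 hours, and 3 at 1 day.

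Genes of protein synthesis and breakdown rose in small part. Of 25 nucleolar genes, which build ribosomes, 4 rose (16.0%, against 7.73% of all genes) and 0 fell. Nhp2 had 241, 175 and 294 and then 579, 441 and 714. Nop16 rose from 217, 236 and 293 to 536, 485 and 518, and Npm1 by 0.92. Nhp2 and Nop16 kept their calls with all 25 arrays, and Ncl (0.67 ± 0.22, adjusted p = 0.0576) missed the threshold. Of 25 ribosomal protein genes 4 rose (16.0%), at most by 0.95 for Rpl13a, and 0 did with all 25 arrays. Their count was 2 without array 422, 1 without array 464 or 432, and 7 without array 460, and probe sets of these genes may also hybridise with RNA of related copies. Of 35 proteasome genes 7 rose (20.0%) and 0 fell. Psmd8 (1.03), Psmc6 (0.80) and Psmd7 (0.70) kept their calls with all 25 arrays, and 4 rose without array 464, 432 or 446. Of 12 translation genes only Eif6 rose (8.33%, near the 7.73% of all genes). Its change was 0.76, and it was not called without array 460, 464, 418 or 432.

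Of 23 growth factor genes 7 fell (30.4%) and only Tgfb1 rose, with 2 and 0 when all 25 arrays were fitted. Ccn1, a matricellular protein, had 360, 1037 and 408 at 6 hours and 100, 105 and 101 at 1 day. Bdnf, a neurotrophin, went from 141, 89.5 and 160 to 67.3, 27.3 and 31.5. Tgfb1 went from 62.5, 12.1 and 51.4 to 133, 204 and 246, a change of 2.02 ± 0.46 (adjusted p = 0.0055, and 0.235 with all 25 arrays). The times did not overlap for these 3. Hbegf (-1.19) fell, Mstn, the inhibitor of muscle growth, fell by 1.28 but not without array 432, and Vegfa by 1.54 but not without array 422, 460, 418 or 446. Igf1 (-0.49), Hgf (-0.03) and Fgf2 (-0.22) were not called. Hgf (means of 12.3 at 6 hours and 11.7 at 1 day) and Fgf2 (12.3 and 10.1) were dim.

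Matrix genes of fibroblasts rose in part. Of 26 measured 7 rose (26.9%) and 0 fell, with a median of 0.19. With all 25 arrays 0 rose, and 4 rose without array 432. Thy1 had 67.2, 39.7 and 19.3 at 6 hours and 194, 167 and 163 at 1 day. The proteoglycan Bgn had 607, 481 and 333 and then 1034, 1329 and 1410, and Col5a2 127, 71.4 and 71.2 and then 171, 450 and 322. These groups did not overlap. Col1a1, the main fibrillar collagen, had 738, 1207 and 1132 and then 622, 988 and 1446 and was not called (-0.06 ± 0.40). Of 16 matrix proteases and inhibitors Mmp12 (1.71) and Mmp14 (0.85) rose and Mmp13 (-1.33) and Timp3 (-1.07) fell. Each direction held 12.5% of the list, against 7.73% of all genes that rose and 4.75% that fell. All 4 calls were lost with all 25 arrays and without at least 3 of the 6 arrays compared: 460, 464, 418, 432 and 446 for Mmp12, 460, 432 and 446 for Mmp14, 422, 464 and 418 for Mmp13, and 460, 418 and 446 for Timp3.

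Markers of other cells of muscle were mostly not called. Of 15 endothelial genes only Emcn rose (6.67%, near the 7.73% of all genes). Emcn went from 111, 85.4 and 144 to 290, 245 and 216, and Pecam1 (0.51) was not called. Of 9 smooth muscle and pericyte genes, with Acta2 at 0.32, and of 11 adipocyte genes, with Lep at -0.53, limma called 0. At an unadjusted p under 0.05, 1 and 2 passed. Of 7 Schwann cell and nerve genes Sox10 fell (-0.76), not without array 460, 464, 418, 432 or 446, and Mbp (-0.42) was not called. The 4 genes of red cells and platelets had a summed signal of 6063 to 9806 at 6 hours and 1807 to 5278 at 1 day. Hba-a1, a haemoglobin chain, had 5770, 6034 and 9484 and then 1704, 4980 and 2552, but was not called (-1.31 ± 0.68, adjusted p = 0.232). Scx, of tendon, had 174, 330 and 133 and then 1070, 275 and 524 and was not called.

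Of 21 myogenic genes 2 fell (9.52%) and 1 rose (4.76%), against 4.75% and 7.73% of all genes. With all 25 arrays 2 fell. Myod1, the factor of activated muscle stem cells, had 2679, 2212 and 2922 at 6 hours and 717, 602 and 695 at 1 day, against 221 to 334 in controls, a change of -1.93 ± 0.27 (adjusted p = 5.99e-05). Myf6, a factor of differentiated fibres, went from 2916, 2608 and 2501 to 629, 546 and 1122. Both were above every control at both times. Myog, which drives differentiation, had 235, 251 and 248 and then 307, 330 and 249 and was not called (0.25 ± 0.29). Id2, an inhibitor of the myogenic factors, rose by 1.37, though not without array 464 or 432. The other 18 of 21 genes of this list, Myf5 (0.64) and embryonic Myh3 (-0.14) among them, were not called.

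Genes of strain and membrane repair also moved in both directions. Of 12 measured 5 fell (41.7%) and 2 rose. Xirp1, which binds actin at sites of remodelling, had 13122, 16126 and 12249 and then 5575, 4216 and 5345, and Rrad, a small GTP-binding protein, 7559, 4724 and 7387 and then 2904, 2931 and 2844, both far above the controls (764 to 1149 and 56.0 to 67.1). Ankrd1 (-0.95) and Rcan1 fell too, and Actc1 (-0.71) fell but not without array 422, 460, 464, 418 or 432. Anxa2, an annexin that joins membranes, rose from 1121, 551 and 1137 to 2840, 3039 and 3906, and Anxa1 from 219, 173 and 285 to 422, 533 and 476. Only Xirp1 and Rcan1 were called with all 25 arrays.

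Of 14 metal and antioxidant genes 2 fell (14.3%, against 4.75% of all genes) and 0 rose. Srxn1, which reduces oxidised peroxiredoxins, had 1052, 1544 and 1357 and then 210, 288 and 494, against 27.4 to 60.4 in controls. Sod2 fell from 555, 456 and 599 to 249, 278 and 308, but was not called with all 25 arrays (adjusted p = 0.172), where only Srxn1 fell. Metallothioneins, which bind zinc and copper, stayed high: Mt1 had 10111, 4228 and 8075 and then 5698, 3453 and 6227 (change -0.50 ± 0.34, adjusted p = 0.38), against 84.1 to 119 in controls. Hmox1, the enzyme that degrades haem, was also not called (0.06 ± 0.22), with 1239 to 1825 at 6 hours and 1169 to 1849 at 1 day. Of 13 clock genes 3 fell (23.1%) and 1 rose (7.69%), against 4.75% and 7.73% of all genes. Nfil3 had 356, 460 and 417 and then 76.9, 55.6 and 101, and Per1 234, 324 and 327 and then 88.0, 50.9 and 109. Nr1d2 (-0.75) lost its call without array 422, 460, 432 or 446. Dbp, with 35.9, 10.6 and 9.3 at 6 hours and 69.9, 21.4 and 97.4 at 1 day, rose by 1.20 in overlapping groups, not without array 422, 464, 432 or 446. All arrays were far below its controls of 196 to 355. The labels give no time of day, and its part in these clock genes was not tested. Only Nfil3 and Per1 of the clock genes were called with all 25 arrays.

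Some genes of the fibres themselves fell, and most were not called. Of 22 fast fibre genes 7 fell (31.8%) and Tpm1 rose, with a median of -0.45. In the fit of all 25 arrays 0 were called, and the number that fell was 3 without array 422, 4 without array 460 and 2 without array 432. Casq1, which stores calcium in the sarcoplasmic reticulum, had 8638, 10314 and 7234 at 6 hours and 5359, 3847 and 4317 at 1 day, against 10563 to 14266 in controls, a change of -0.95 ± 0.21 (adjusted p = 0.00498, and 0.255 with all 25 arrays). Clcn1, the chloride channel of the fibre membrane, fell by 1.24 but not without array 422, 460, 418 or 432, and Kcna7, a potassium channel, by 1.12 but not without array 464. Ckm (-0.35), Pvalb (-0.58) and Acta1 (-0.09) were not called. Of 10 slow fibre genes limma called 0, with 1 higher and 1 lower at an unadjusted p under 0.05. Array 460 had the lowest 1 day signal of Ckm, Pvalb and Acta1, and the summed signal of the fast fibre list was 154110 to 168489 at 6 hours and 93597 to 149845 at 1 day. The actin 3′ to 5′ ratio, which comes from another probe pair, was higher on every 1 day array, and its part in these falls was not tested.

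Some genes of energy metabolism fell. Of 24 genes of glycolysis and glycogen 10 fell (41.7%) and 3 rose, with a median of -0.50. Slc2a4, the insulin-dependent glucose transporter, had 1284, 1321 and 1346 at 6 hours and 281, 376 and 474 at 1 day, against 1332 to 2215 in controls, a change of -1.80 ± 0.42 (adjusted p = 0.00683, and 0.153 with all 25 arrays). Phkg1, a subunit of the kinase that activates glycogen phosphorylase, went from 720, 1029 and 668 to 247, 280 and 317. The times did not overlap. Gpd1 (-1.39) fell, Phka1 (-1.75) fell but not without array 422 or 432, and the phosphorylase Pygm (-0.91) lost its call without any one of the 6 arrays. Pgam1, the mutase of non-muscle cells, rose from 139, 89.9 and 123 to 267, 486 and 457, while the muscle form Pgam2 fell by 0.93, not without array 460. Hk1 (1.06), a hexokinase, and Pfkl (0.78), a phosphofructokinase, rose. Hk1 had 596 to 1106 in controls, and its groups overlapped, at 609 to 1074 at 6 hours and 915 to 2440 at 1 day. The call of Hk1 was lost without array 422, 464, 418 or 432, and that of Pfkl without array 460 or 432. In the fit of all 25 arrays Pgam1 rose and 0 fell, and without array 432 the counts were 1 higher and 6 lower.

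Of 36 genes of the citric acid cycle and fat oxidation 13 fell (36.1%) and 0 rose, with a median of -0.51, and of 39 of the respiratory chain 7 fell (17.9%) and 1 rose, with a median of -0.48. Neither list had a call with all 25 arrays. Without array 422, 460, 432 or 446 the fallen genes of the citric acid cycle list numbered 6, 5, 5 and 7, and of the respiratory chain 1 without array 460, 3 without 418 and 2 without 432. Pdhb, a subunit of pyruvate dehydrogenase, had 2005, 2391 and 2292 and then 1259, 1312 and 1123. Idh3a, of the citric acid cycle, had 1484, 1479 and 1088 and then 751, 797 and 656. Both overlapped the control range at 6 hours and were below every control at 1 day. Nearly all members had small negative changes, between -0.87 and 0.01 for the first list. In the second, Cox6a1, the form of a cytochrome oxidase subunit made outside muscle, rose by 0.66, not without array 422, 464, 418, 432 or 446. Its muscle form Cox6a2 was not called (-0.56, adjusted p = 0.124). Cox8b, the muscle form of another subunit, fell by 0.78, not without array 460, 418 or 432.

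The same 2 times were also measured after contraction, where the injured fibres were stretched and not frozen. The difference between the injuries in the change from 6 hours to 1 day, which shares no array between them, was called for 25 genes as higher after freeze (0.303% of the genes) and 13 as lower (0.158%). This test rests on 2 contraction arrays at 1 day. Without contraction array 463 at 1 day, 1 gene was higher and 1 lower, and with all 25 arrays 0 and 2. Rcan1, which fell after freeze, had 5480, 5370 and 4737 at 6 hours and 4189 and 5483 at 1 day after contraction, a difference between the changes of -2.39 ± 0.29 (adjusted p = 0.000463) that was also called with all 25 arrays and with each array of these 4 groups left out in turn. Mrc1 rose after freeze and had 62.2, 56.2 and 35.8 and then 47.4 and 45.1 after contraction, a difference of 2.56 ± 0.33 (adjusted p = 0.000528, and 0.668 with all 25 arrays). Arg1 had 6.2, 24.7 and 19.9 and then 54.1 and 29.7 after contraction, a difference of 2.83 ± 0.48 (adjusted p = 0.00675, and 0.174 with all 25 arrays), which was lost without contraction array 463. Fos after contraction had 6395, 4159 and 6066 and then 2771 and 3068, a difference of -2.63 ± 0.54 (adjusted p = 0.0312). It was lost when either 1 day contraction array (421 or 463), any 6 hour contraction array (417, 431 or 445) or freeze array 460, 464 or 432 was left out. Mmp10, a matrix protease, was dim after freeze, with 2.0, 38.7 and 9.6 and then 1.9, 1.1 and 1.8, and had 39.4, 17.4 and 41.2 and then 178 and 227 after contraction.

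**Figure D4:**
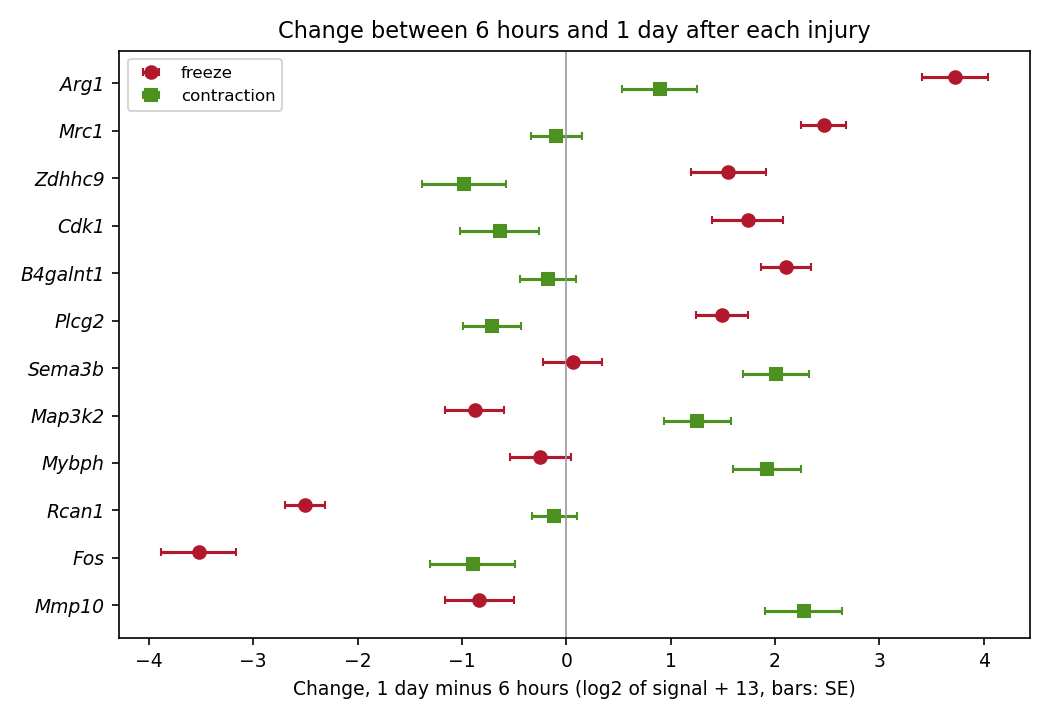
Change in log2(signal + 13) from 6 hours to 1 day after freeze (red circles, 3 arrays at each time) and after contraction (green squares, 3 arrays at 6 hours and 2 at 1 day) for the 6 genes with the highest and the 6 with the lowest difference among those called. Bars are SE: the points of Mrc1 and Rcan1 lie far from 0 after freeze and near 0 after contraction.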

How the data were processed

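Each muscle's total RNA was measured on 1 Affymetrix MG-U74Av2 array. The deposited intensity signals were made by the authors with MAS5 (processing notes of the submitters). The sources used here give neither its version nor detection calls. Trimmed means of the 25 arrays lay near 150 units, so signals were compared as scaled. Probe sets were named from the platform annotation, updated with RefSeq: of 12488, 66 were controls, 10833 had 1 symbol, 396 several and 1193 were not in the annotation. A gene took its probe set of highest mean log2 value over the 25 arrays, and 39 of the 126 called named genes had several.

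Changes were fitted with limma 3.58.1 in R 4.3.3 on log2(signal + 13), as a mean for each of 9 groups over 24 arrays, with a trend in the prior variance and no filter on level (15 residual and 6.66 prior degrees of freedom), after a check on simulated data. Tests were two-sided. Array number limits the precision. Named genes were the 15 largest rises and falls among non-overlapping calls of at least 2-fold, the 3 largest called rises and falls of each list (where none was called, 3 of high level), genes switched on or off, the 6 extremes of the difference between injuries, and fixed representatives; others are values only. Members and lists were chosen with earlier results of these data known. Alternatives were other pseudocounts, scalings, filters, arrays and fits, and leaving out each array.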

Additional observations from a re-analysis of the deposited data

Results flagged for a closer look

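The change from 6 hours to 1 day differed between freeze and contraction for 12 named genes by a test of the difference itself in limma. These are the 6 highest and 6 lowest of the genes called. The difference, freeze minus contraction on the log2 scale, was 2.83 for Arg1, 2.56 for Mrc1, 2.53 for Zdhhc9, 2.38 for Cdk1, 2.28 for B4galnt1 and 2.21 for Plcg2. It was -3.11 for Mmp10, -2.63 for Fos, -2.39 for Rcan1, -2.17 for Mybph, -2.13 for Map3k2 and -1.95 for Sema3b.

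Mmp10, Mybph, Map3k2 and Sema3b had changes of 2.28 ± 0.37, 1.92 ± 0.32, 1.25 ± 0.32 and 2.01 ± 0.32 (SE) on the log2 scale after contraction. After freeze their changes were -0.83, -0.25, -0.88 and 0.06, none called. Mybph, a myosin-binding protein, had 1319, 605 and 789 at 6 hours and 2937 and 3671 at 1 day after contraction, against 309, 270 and 285 at 1 day after freeze. With all 25 arrays Rcan1 and Mmp10 were called, and the other 10 were not. Each of the 11 arrays of these 4 groups was also left out in turn. Rcan1 and Mrc1 then kept their calls throughout, and Arg1, B4galnt1, Plcg2 and Mmp10 lost theirs only without contraction array 463. The call of Sema3b was lost in 10 of the 11 fits and kept only without freeze array 446, and that of Zdhhc9 in 10 and kept only without freeze array 418. Cdk1 lost its call in 9 and kept it without contraction array 445 or freeze array 446. Fos and Mybph lost theirs in 8 each and Map3k2 in 6. Fos kept it without freeze array 422, 418 or 446, Mybph without contraction array 417 or freeze array 422 or 446, and Map3k2 without contraction array 417 or freeze array 422, 464, 418 or 446.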

How the results depend on the processing

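No paired analysis was possible because the groups compared share no replicate numbers. Taking adjacent sample numbers as a random block gave a consensus correlation of -0.0158 and left 638 and 392 genes called. Changes kept their sign for the 126 named calls under every alternative that tested them (the filter on the mean of the 6 arrays left 17 untested), and 89 of them kept the call without any 1 of the 6 arrays. With all 25 arrays 54 of the 126 were called, and 191 and 120 probe sets were higher and lower, 167 and 94 genes, 4 genes switched on, and 0 and 2 genes different between injuries. The shared residual SD was then 0.372 in place of 0.325 at the median probe set. Fitted on the groups compared alone, the difference between injuries gave 5 and 2 genes. It gave 41 and 22 after quantile normalization. A filter on the mean of the 6 arrays left 3 genes on and 1 off, since dim genes were removed. An adjusted p under 0.01 left 401 and 189 probe sets, 352 and 166 genes, and 8 and 2 differences. At least 2-fold changes left 393 and 198 probe sets and 334 and 156 genes.

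Leaving out 1 array at a time gave 499 to 685 probe sets higher and 263 to 412 lower, 435 to 598 genes higher and 224 to 345 lower, 8 to 21 switched on and 2 to 3 off, and 1 to 35 differences higher and 1 to 20 lower. The lowest count of fallen genes came without freeze array 432 (224), followed by 464 (244) and 418 (257). More genes met the switched-on rule without array 446 (21), 422 (14) or 418 (14), since fewer arrays had to meet it. Where 1 array of a pair was left out, the lone array was assumed to vary like the other groups. Of the 39 called named genes with several probe sets, 7 had all of them called and 13 had one of opposite sign, none called in that direction. Tubb2a was the only gene with calls in both directions (1.3 and -1.10). The share of higher among called genes was 61.9%, 60.1% after quantile normalization and 61.8% after centring.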
